A study of Homo sapiens with 12 samples.

Results

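The mRNAs examined here encode the CCR4-NOT complex, the main machine that removes poly(A) tails from cytoplasmic mRNA. The members were chosen by name as 10 of its subunits (CNOT1, CNOT2, CNOT3, CNOT4, CNOT6, CNOT6L, CNOT7, CNOT8, CNOT9 and CNOT10), and all 10 were found among the 22379 genes measured. They were followed in U2OS, a human osteosarcoma line, by sequencing of polyadenylated RNA in 12 libraries that formed 6 groups of 2. Cells were transfected with Cas9 and a nontargeting guide (NONT), a guide against NUP93, which encodes a nuclear pore protein (NUP93-KO), or a guide against EXOSC5, which encodes a subunit of the RNA exosome (EXOSC5-KO). Each genotype was left untreated or received 1 μM triptolide, which blocks transcription initiation by RNA Pol II, for 8 h. The knockouts were puromycin-selected pools, not clones, so each can hold cells with an intact target gene. The study's methods give a shorter selection and expansion for the NUP93 and EXOSC5 guides than for other guides, NONT among them, so the length of selection and the knockout cannot be told apart. The sample titles call the control arm untreated while its treatment field names DMSO. The labels do not say whether the 2 replicates of a group were separate cultures, so p-values measure only the spread between these samples.

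Shortening of the poly(A) tail is the first and often the limiting step in the decay of an mRNA. In CCR4-NOT, the scaffold CNOT1 holds a pair of nucleases. One is CNOT6 or its paralog CNOT6L, of the exonuclease-endonuclease-phosphatase family, and the other is CNOT7 or its paralog CNOT8, of the DEDD family. A complex carries 1 member of each pair. CNOT2 and CNOT3 form the NOT module, CNOT9 binds adaptors such as the GW182 proteins that bring microRNA targets to the complex, CNOT10 sits with CNOT11 at the other end of the scaffold, and CNOT4 is a ubiquitin ligase that associates loosely in human cells.

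Adaptors such as the Pumilio proteins bring CCR4-NOT to mRNAs that hold the element TGTANATA (N for any base, T for U) in the 3′ untranslated region (UTR), so the subunits' own 3′ UTRs were searched for it. One canonical GENCODE transcript per gene on GRCh38 was read, on the sense strand only. The element was found in 5 of the 10 members and in 30.6% of 12934 genes with such a UTR. CNOT8 held 4 copies in a 3′ UTR of 1353 bases, whereas CNOT7 held 2 in 5754 bases, CNOT6L held 1 in 7044 bases and CNOT6 held 0 in 4158 bases. A count of 4 or more was found in 1.78% of all these genes, and in 0.307% of the 2929 genes with a 3′ UTR of 1000 to 2000 bases. The CNOT6L count stands out less, since 59.0% of genes with a 3′ UTR of at least 3000 bases held the element. CNOT4, whose loss after triptolide came next after that of CNOT6L in each genotype, held 0 copies, and CNOT1 and CNOT2 held 1 each. A link between the element and the loss was not tested. The CNOT8 sites and the CNOT6L site are shown because these 2 mRNAs lost more than their paralogs did, as described further on. The printed sites were thus picked by the loss. Sites of other members are not printed. Among them are those of CNOT7, which held more copies than CNOT6L while its loss was among the smallest of the members in each genotype.  Each printed site is a copy counted above. Each is given 5′ to 3′ with the element in capitals, from the plus strand at chr5:154875629-154875656, chr5:154875756-154875783, chr5:154875901-154875928 and chr5:154876723-154876750 for CNOT8 and from the minus strand at chr4:77718518-77718545 for CNOT6L.
CNOT8 site 1: gctctgaattTGTAAATAagtcttcccc
CNOT8 site 2: agtagtaaaaTGTATATAactcttacct
CNOT8 site 3: ggtaatgggtTGTAGATActgagtcttc
CNOT8 site 4: ttaagatgctTGTAAATActatttatgt
CNOT6L site: tgaattttgaTGTAAATAaaatatcttt
The pentamer ATTTA of AU-rich elements was present in 9 members, CNOT9 being the exception, and in 74.3% of genes. The longer TTATTTATT, which contains that pentamer, was present in 0 members and in 9.87% of genes. A match describes the letters only and was not tested as a binding site.

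Values are the deposited spike-in-normalised signals. They were scaled on ERCC RNAs added in proportion to cell number, so they are meant to follow mRNA per cell, and an error in the cell count or spike-in volume would move every gene of a library together. RNA was captured by its poly(A) tail, so a loss of the tail and a loss of the mRNA cannot be told apart in these values. Depth was about 8.55 M to 11.9 M reads per library, with 15795 to 16523 genes detected above 0. The sum over genes was 4.90 M to 16.4 M. The untreated NONT libraries were the least even pair, with member sums of 9732 and 14310. Of 6 mesenchymal markers, 5 had an untreated mean of at least 10 and TWIST1 was listed at 0. That mean was also reached by 3 of the 8 epithelial, haematopoietic and neural markers (EPCAM, CDH1 and SNAP25). COL1A2, 1 of the 5, was at 10.2 to 42.0 in untreated libraries, near EPCAM at 16.8 to 47.6. The 8 markers summed to 74.3 to 208.6 per library, against 46854 to 144657 for the mesenchymal list, a sum carried by VIM, COL1A1 and SPARC. In untreated cells NUP93 was at 1753 and 2489 in NONT and at 1395 and 1432 in NUP93-KO, for a log2 difference of −0.56 that missed the threshold (limma adjusted p = 0.926). After triptolide NUP93 was at 1007 and 898.7 for NONT and at 801.3 and 1019 for NUP93-KO (log2 difference −0.0738, limma adjusted p = 0.767). The mRNA of the target was thus lower in both untreated libraries of this knockout, short of the adjusted threshold, and was not shown to be lower under triptolide. The target proteins were not measured in these data. EXOSC5 was at 299.4 and 481.3 in NONT and at 215.9 and 147.7 in EXOSC5-KO (log2 difference −1.08, limma adjusted p = 0.151, unadjusted 0.00152), and under triptolide the log2 difference was −1.42 ± 0.29 (SE, limma adjusted p = 0.00302). All groups of bulk RNA share a further limit: fewer cells with an mRNA and less of it per cell cannot be told apart.

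To compare the subunits with each other, values were divided by the length of the canonical transcript. In untreated cells CNOT1 (chr16:58519951-58629885) had the highest value per kb, with a median of 477.8 over the 6 untreated libraries (range 385.4 to 695.1). CNOT3 followed at 268.8 (212.1 to 379.1), below CNOT1 without overlap. CNOT9 (262.8), CNOT7 (215.6), CNOT2 (206.1), CNOT8 (201.0) and CNOT6 (167.4) came next, and the range of each of these neighbours overlapped that of the next. CNOT10 (105.8), CNOT4 (78.7) and CNOT6L (53.6) were lowest, and their neighbouring ranges overlapped too. After triptolide the order changed in its middle. CNOT1 (136.8 per kb), CNOT3 (135.3) and CNOT7 (99.4) then stood above the rest, whose highest library was CNOT9 at 59.4. CNOT6L remained lowest with a median of 1.81 per kb, and CNOT4 was second lowest at 6.54. These orders depend on the length taken, and which transcripts these cells use was not tested. Before division by length, untreated values were 362.8 to 560.1 for CNOT6L, 232.1 to 423.5 for CNOT10 and 191.6 to 365.7 for CNOT4.

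**Figure D1:**
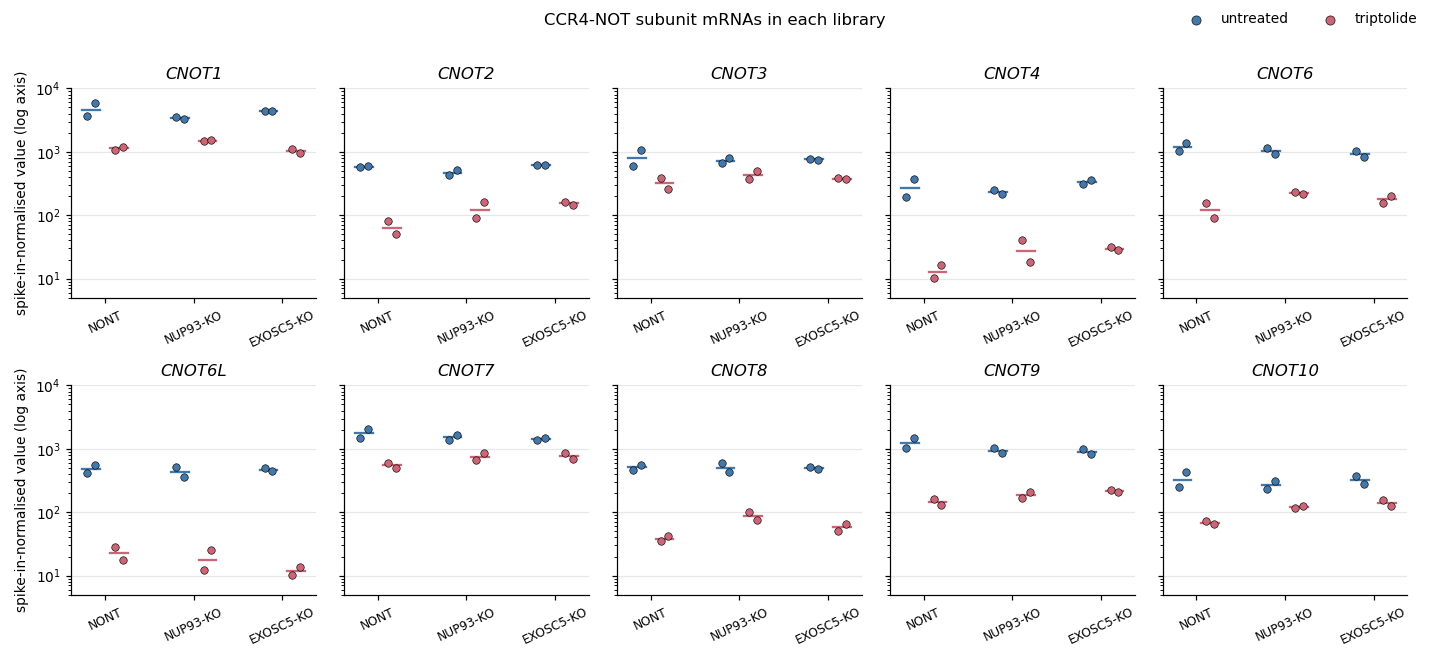
Each panel shows 1 CCR4-NOT subunit, with the spike-in-normalised value per library on a log axis against the 3 genotypes; blue points are untreated libraries, red points triptolide libraries, and the line is the geometric mean of the 2 replicates. Red points lie below blue points in each panel and genotype, with the widest gap for CNOT6L (10.4 to 28.5 against 362.8 to 560.1) and narrow gaps for CNOT3 and CNOT7.

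The first comparison asked how the subunit mRNAs changed when transcription was blocked. All 10 were lower after triptolide in each of the 3 genotypes by limma with Benjamini-Hochberg adjustment over 13811 genes, but the size of the loss ranged from 1.69-fold for CNOT3 in NUP93-KO to 36.2-fold for CNOT6L in EXOSC5-KO. The calls are to be read against the whole table, since the share of all genes called lower was 90% for NONT, 55.1% for NUP93-KO and 64.3% for EXOSC5-KO. Likewise, both triptolide libraries lay below both untreated libraries for 10 of 10 members in each genotype, and for 94.8%, 79.1% and 88% of all genes. The median member changed by −3.13, −2.07 and −2.08 on the log2 scale, while the median gene changed by −1.62, −0.92 and −1.08. The members' median was thus lower than that of all genes by 1.51, 1.15 and 1.00 log2 units. In single libraries, the log2 level of the median member relative to the median gene had an SD of 0.138 between replicates. That SD describes levels, not the changes. Members below the median gene numbered 9, 9 and 8 of 10.

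The scaffold CNOT1 was at 3675 and 5847 in untreated NONT and at 1078 and 1205 after triptolide. The NUP93-KO libraries held 3536 and 3241 before and 1481 and 1519 after the drug, and the EXOSC5-KO libraries 4363 and 4452 before and 1096 and 962 after. No treated library came near an untreated one. The log2 changes were −2.02, −1.17 and −2.10 (SE 0.20 each, limma adjusted p = 1.56e-07, 0.000117 and 2.20e-07), which lay 0.40, 0.26 and 1.03 below the median gene.

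Among the nucleases, CNOT6L (chr4:77713387-77819615, minus strand) lost most of all members in each genotype. Its values were 412.6 and 560.1 in untreated NONT and 28.5 and 17.9 after triptolide. NUP93-KO had 521.4 and 362.8 against 12.2 and 25.8, and EXOSC5-KO had 497.0 and 444.1 against 10.4 and 13.9. The treated values stood for only about 11 to 47 reads, so their counting error is large. The log2 changes were −4.35, −4.53 and −5.18 (SE 0.38 each, limma adjusted p = 3.28e-08, 6.28e-08 and 1.38e-08), which stood at percentile 7.52, 2.96 and 1.69 of all genes. Its paralog CNOT6 (chr5:180494379-180578358) was at 1036 and 1397 in untreated NONT and at 157.5 and 90.2 after triptolide, with log2 changes of −3.32, −2.20 and −2.39 in the 3 genotypes (SE 0.27 each, limma adjusted p = 1.19e-08, 2.96e-06 and 1.05e-06).

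CNOT8 (chr5:154857553-154876792) came next after CNOT6L and CNOT4 in the order of loss in each genotype. It was at 469.4 and 547.8 in untreated NONT and at 34.8 and 42.0 after triptolide. NUP93-KO libraries held 598.7 and 426.2 against 101.9 and 74.9, and EXOSC5-KO libraries 509.4 and 474.1 against 51.3 and 65.1. The log2 changes were −3.70, −2.52 and −3.07 (SE 0.28 each, limma adjusted p = 5.63e-09, 1.03e-06 and 1.09e-07). Its paralog CNOT7 kept far more of its mRNA. CNOT7 was at 1489 and 2039 against 590.7 and 504.0 in NONT. The NUP93-KO values were 1381 and 1670 against 670.3 and 848.1, and the EXOSC5-KO values 1383 and 1481 against 871.4 and 699.7. Its log2 changes of −1.67, −1.01 and −0.87 (SE 0.21 each, limma adjusted p = 2.13e-06, 0.000670 and 0.00189) lay 0.05 and 0.09 below and 0.20 above the median gene.

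**Figure D2:**
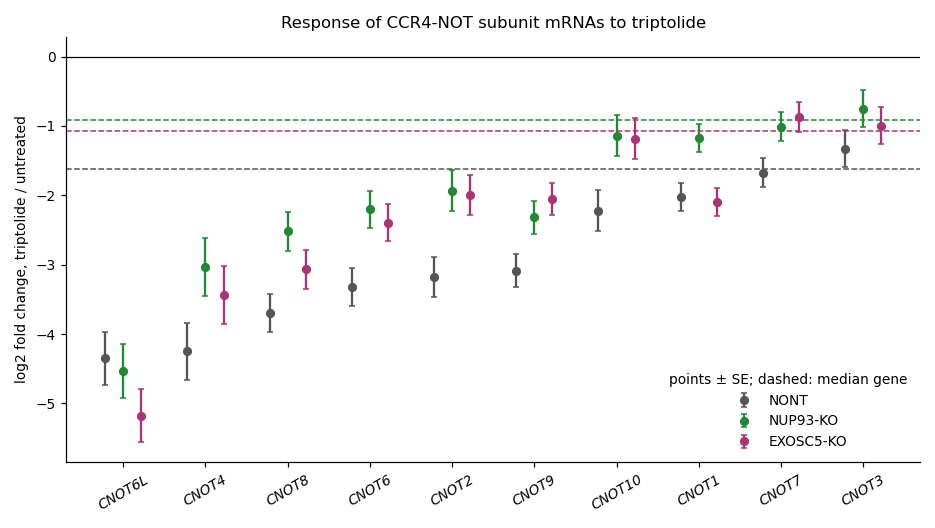
The log2 fold change of each subunit, triptolide over untreated, is plotted with its SE for the 3 genotypes, and the dashed lines mark the median of all genes tested in the same genotype (−1.62 in NONT, −0.92 in NUP93-KO, −1.08 in EXOSC5-KO). CNOT6L, CNOT4 and CNOT8 lie farthest below the lines, and CNOT7 and CNOT3 lie on or near them.

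The ratio of 2 paralogs within a library depends little on the spike-in scale, so the pairs were also compared in this way, on value + 1. The added 1 leaves a small dependence where values are low, and the shifts without it, an alternative chosen after seeing the data, were −2.12 for CNOT6L to CNOT6 and −1.93 for CNOT8 to CNOT7 (the exact permutation test described next, p = 0.00926 for each). For CNOT6L to CNOT6 the log2 ratio was −1.33 and −1.32 in untreated NONT and −2.43 and −2.27 after triptolide. NUP93-KO gave −1.14 and −1.35 against −4.15 and −3.01, and EXOSC5-KO gave −1.07 and −0.92 against −3.78 and −3.77. The treated range (−4.15 to −2.27) did not overlap the untreated one (−1.35 to −0.92). The mean shift was −2.05, made up of −1.03 for NONT, −2.33 for NUP93-KO and −2.78 for EXOSC5-KO (exact two-sided permutation test within genotype, p = 0.00926, the smallest that its 216 arrangements allow, and 0.00926 after adjustment over the 2 ratios). The treated ratio was lower in all 4 knockout libraries than in both NONT libraries, a difference between genotypes that was not tested.

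For CNOT8 to CNOT7 the log2 ratio was −1.66 and −1.89 in untreated NONT and −4.05 and −3.55 after triptolide. NUP93-KO gave −1.20 and −1.97 against −2.71 and −3.48, and EXOSC5-KO gave −1.44 and −1.64 against −4.06 and −3.41. Again the treated range (−4.06 to −2.71) lay below the untreated one (−1.97 to −1.20). The mean shift was −1.91, with −2.02, −1.51 and −2.19 in the 3 genotypes (the same exact permutation test, p = 0.00926, adjusted 0.00926). Reads can be shared with processed pseudogenes of CNOT7 (2 in the annotation), CNOT6L and CNOT4 (1 each), so the levels of these 3 mRNAs are uncertain to that extent.

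**Figure D3:**
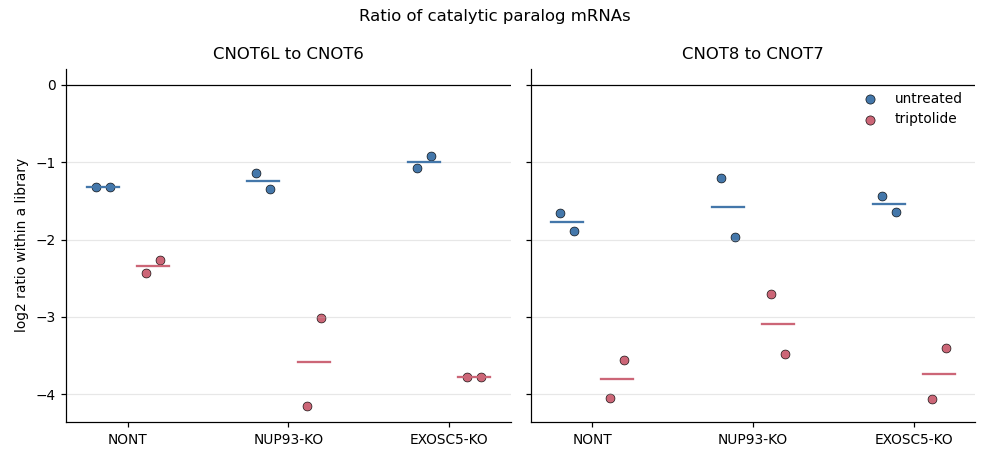
The log2 ratio of paralogous nuclease mRNAs within each library is plotted for the 3 genotypes, CNOT6L to CNOT6 on the left and CNOT8 to CNOT7 on the right; points are libraries, lines the means of 2 replicates. All 6 triptolide libraries (red) lie below all 6 untreated libraries (blue) in both panels.

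In the NOT module the core subunits parted. CNOT2 (chr12:70243002-70354993) had 565.7 and 606.6 in untreated NONT and fell to 79.8 and 51.2. NUP93-KO had 423.0 and 523.5 against 91.7 and 163.7 after the drug, and EXOSC5-KO had 614.5 and 609.8 against 162.0 and 145.0. CNOT3 (chr19:54137749-54155681) had 597.6 and 1068 in untreated NONT and 386.7 and 260.6 after triptolide. The pairs for NUP93-KO were 658.5 and 794.1 against 375.8 and 489.0, and those for EXOSC5-KO 770.8 and 744.1 against 391.6 and 366.2. The log2 changes were −3.17, −1.93 and −1.99 for CNOT2 (SE 0.29, limma adjusted p = 4.73e-08, 2.60e-05 and 1.70e-05). They were −1.33, −0.75 and −0.998 for CNOT3 (SE 0.27, limma adjusted p = 0.000233, 0.0244 and 0.00386), in each genotype a smaller loss than that of the median gene. The CNOT3 call in NUP93-KO was lost without the second untreated replicate (−0.62, adjusted p = 0.156) or without the first triptolide replicate (−0.56, adjusted p = 0.188) of that genotype. CNOT3 lies in a part of chromosome 19 for which GRCh38 carries alternate haplotypes, and a split of its reads among them was not tested.

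The other subunits spanned the range. CNOT4, the ubiquitin ligase, was at 191.6 and 365.7 against 10.4 and 16.2 in NONT. NUP93-KO had 249.3 and 218.0 against 41.2 and 18.4, and EXOSC5-KO had 307.5 and 356.2 against 31.5 and 27.9. Its log2 changes of −4.25, −3.03 and −3.44 (SE 0.41, limma adjusted p = 9.94e-08, 9.57e-06 and 2.20e-06) came next after CNOT6L in each genotype. Treated CNOT4 values stood for only about 17 to 47 reads, so their counting error is large too. CNOT9 had 1048 and 1455 against 162.0 and 128.9 in NONT, with log2 changes of −3.09, −2.32 and −2.05 (SE 0.23, limma adjusted p = 5.71e-09, 3.71e-07 and 1.20e-06). CNOT10 had 248.1 and 423.5 against 73.4 and 64.5 in NONT, and its changes of −2.22, −1.14 and −1.18 (SE 0.30, limma adjusted p = 3.72e-06, 0.00351 and 0.00236) lay 0.60, 0.22 and 0.11 below the median gene. Without the second untreated NUP93-KO replicate, CNOT10 missed the threshold in that genotype (−0.94, adjusted p = 0.0548).

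Across the 10 members the order of the changes was alike in the genotypes, with Spearman's rho of 0.95 for NONT with NUP93-KO, 0.90 for NONT with EXOSC5-KO and 0.93 for the pair of knockouts. These correlations run over genes of 1 complex and are given as a description. The summed mRNA of the 10 members was 9327 to 14310 in untreated and 2381 to 3687 in triptolide libraries. As a share of all values it was 0.0704% to 0.0870% and 0.0351% to 0.0486%, so the summed share was lower in all treated libraries as well. CNOT1 alone made up 34.2% to 50.6% of the member sum of a library, so the sum weighs this gene most.

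The spike-in scale decides how many members count as lower. When all libraries were set to the same total, 9, 9 and 7 members were called lower for NONT, NUP93-KO and EXOSC5-KO, against 38.2%, 39.3% and 36.8% of genes. On the median-of-ratios scale, which centres on the median gene, 8, 6 and 7 were, against 30.3%, 29.7% and 28.7%. CNOT2, CNOT4, CNOT6, CNOT6L, CNOT8 and CNOT9 were called lower in all 3 genotypes on both scales. CNOT3 was not called on either, and on the median-of-ratios scale its changes were 0.32, 0.15 and 0.08. CNOT7 was called on the same-total scale only in NONT and NUP93-KO, and it was at −0.02, −0.11 and 0.21 on the median-of-ratios scale. Scaled on the 13 mitochondrially encoded mRNAs, all 10 were called lower in each genotype, against 81.2%, 76.5% and 75.1% of genes.

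The second comparison set each knockout against NONT without drug. No subunit passed the threshold in either knockout (limma), and 1 of 10 in NUP93-KO and 0 of 10 in EXOSC5-KO had an unadjusted p under 0.05, as 4.2% and 8.49% of all genes had. Few genes passed at all. For NUP93-KO 0.00724% were called lower and 0.0145% higher, and for EXOSC5-KO these shares were 0.0362% and 0.485%. The log2 differences ran from −0.45 (CNOT1) to −0.01 (CNOT8) for NUP93-KO and from −0.45 (CNOT9) to 0.32 (CNOT4) for EXOSC5-KO. The half-width of their 95% intervals, not adjusted for the number of genes, was 0.43 for CNOT1 and 0.87 for CNOT4. Differences of that size would not have been detected, and larger ones could be missed too. The EXOSC5 difference of −1.08 in EXOSC5-KO missed the threshold (limma adjusted p = 0.151). Both NUP93-KO libraries lay below both NONT libraries for CNOT1, CNOT2 and CNOT9, and the same held in EXOSC5-KO for CNOT7 and CNOT9. The shares of all genes placed in this way were 12.8% and 9.2%. CNOT2 lay above NONT in EXOSC5-KO, as did 19.2% of genes. On the mitochondrial scale CNOT9 was called lower in EXOSC5-KO (−0.83, limma adjusted p = 0.0330), as were 5.21% of genes.

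The third comparison set the knockouts against NONT under triptolide. On the spike-in scale 4 subunits were higher in NUP93-KO, where 41.9% of genes were, and 3 were higher in EXOSC5-KO, where 39.2% were. CNOT2 was at 79.8 and 51.2 with NONT, 91.7 and 163.7 with NUP93-KO and 162.0 and 145.0 with EXOSC5-KO, higher by 0.93 ± 0.29 and 1.25 ± 0.29 log2 units (SE, limma adjusted p = 0.0217 and 0.00608). CNOT10 was at 73.4 and 64.5 with NONT, 117.9 and 123.3 with NUP93-KO and 156.7 and 126.7 with EXOSC5-KO, higher by 0.80 and 1.02 (SE 0.30, limma adjusted p = 0.0405 and 0.0159). CNOT6 (0.91 ± 0.27, limma adjusted p = 0.0182) and CNOT8 (1.17 ± 0.28, limma adjusted p = 0.00819) were also higher in NUP93-KO, and CNOT4 (1.13 ± 0.41, limma adjusted p = 0.0405) in EXOSC5-KO. For 8 members both NUP93-KO libraries lay above both NONT libraries, as for 75.6% of genes, and for 6 members both EXOSC5-KO libraries did, as for 75.1%.

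CNOT6L stood on the other side, with values of 28.5 and 17.9 for NONT, 12.2 and 25.8 for NUP93-KO, then 10.4 and 13.9 for EXOSC5-KO. The differences were −0.33 and −0.86 (SE 0.38, limma adjusted p = 0.484 and 0.0803), neither past the threshold. CNOT6L was the 1 member whose EXOSC5-KO libraries both lay below NONT, as 1.97% of all genes did. The higher calls depended on the spike-in scale. On the same-total, median-of-ratios and mitochondrial scales 0 members were called in NUP93-KO, and in EXOSC5-KO 2 were called lower and none higher. These 2 were CNOT1 (−0.72, −0.82 and −0.98, limma adjusted p = 0.00803, 0.00477 and 0.00422) and CNOT6L (−1.42, −1.52 and −1.64, limma adjusted p = 0.0221, 0.0158 and 0.0219). Of all genes, 4.24%, 7.74% and 3.88% were called lower in EXOSC5-KO on these scales and 8.91%, 6.66% and 1.64% higher. The shares for NUP93-KO were 2.4%, 2.66% and 0.159% lower and 3.74%, 3.5% and 0.92% higher.

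The number called higher also rested on single libraries. In NUP93-KO it was 1 without the second NONT triptolide replicate (5.31% of genes) or the first NUP93-KO triptolide replicate (19.1%), 2 without the second NUP93-KO triptolide replicate (7.89%) and 7 without either untreated NONT replicate (53.1%). In EXOSC5-KO it was 0 without the second NONT triptolide replicate (8.98% of genes), 1 without the first EXOSC5-KO triptolide replicate (14.4%) and 5 without either untreated NONT replicate (51.6%). The untreated NONT libraries do not enter the difference itself, only the shared estimate of the spread. CNOT2 in NUP93-KO was at 0.61 without the second NONT triptolide replicate and at 0.51 without the second NUP93-KO one (limma adjusted p = 0.205 and 0.243). CNOT6 in NUP93-KO was at 0.51 without the second NONT triptolide replicate (limma adjusted p = 0.223), and it also missed the threshold without either NUP93-KO triptolide replicate (0.84 and 0.97, adjusted p = 0.0754 and 0.0738). CNOT8 was at 0.95 without the first NUP93-KO triptolide replicate (limma adjusted p = 0.0588). The CNOT10 call in NUP93-KO and the CNOT4 call in EXOSC5-KO were lost without any 1 of the 4 triptolide libraries compared, at 0.71 to 0.89 and at 0.83 to 1.43. Both also missed it without some untreated knockout replicates, the second of NUP93-KO and either of EXOSC5-KO for CNOT10 and all 4 for CNOT4 (limma adjusted p = 0.0505 to 0.0534). In EXOSC5-KO CNOT2 (0.93, adjusted p = 0.0778) and CNOT10 (0.93, adjusted p = 0.104) were lost without the second NONT triptolide replicate, and CNOT10 also without the first EXOSC5-KO triptolide replicate (0.87, adjusted p = 0.105).

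The last comparison asked whether the loss after triptolide differed between a knockout and NONT. No member passed the threshold (limma), with 7 of 10 in NUP93-KO and 5 of 10 in EXOSC5-KO at an unadjusted p under 0.05, each in the direction of a smaller loss, as 41.3% and 23.1% of all genes were. The lowest adjusted p values were 0.0703 (NUP93-KO) and 0.164 (EXOSC5-KO), and 0.76% and 0.319% of genes were called in that direction. The median difference was 0.96 and 0.80 over the members and 0.74 and 0.57 over all genes. CNOT2 had the largest value in both knockouts (1.24 and 1.18), and CNOT6L had the lowest (−0.18 and −0.83). Without the first untreated NONT replicate, 9 members were called for NUP93-KO (51% of genes) and 4 for EXOSC5-KO (38.2%), and without the first NONT triptolide replicate 2 were called in NUP93-KO (18%). Both comparisons share the NONT libraries.

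**Figure D4:**
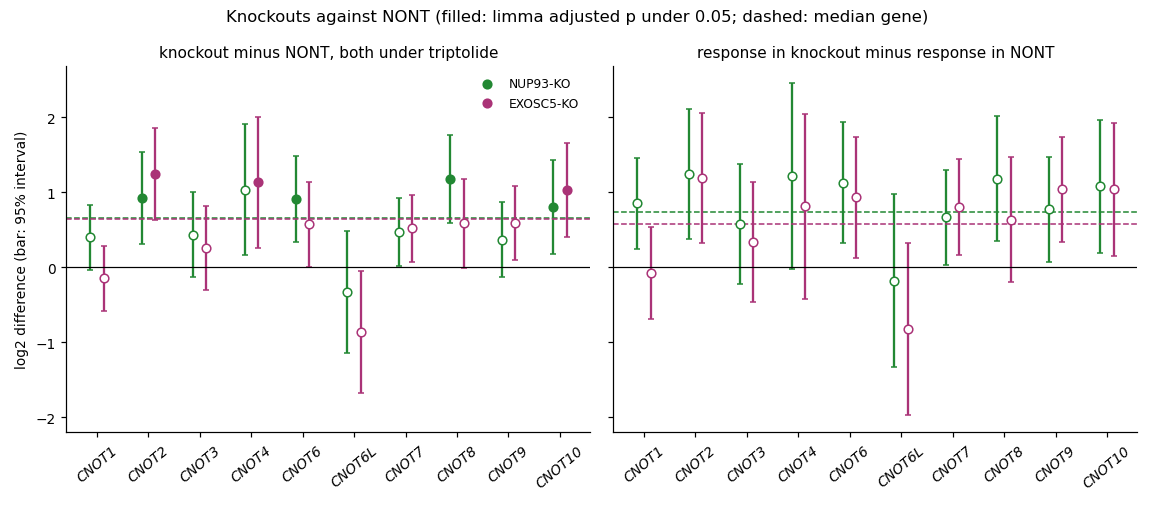
Left, the log2 difference of each knockout from NONT under triptolide; right, the difference between the response in a knockout and that in NONT. Bars are 95% intervals, filled points passed the adjusted threshold of limma, and dashed lines mark the median gene (0.66 and 0.65 on the left, 0.74 and 0.57 on the right, NUP93-KO first); CNOT6L is the lowest member in each set, and no point on the right is filled.

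The rest of the deadenylation pathway was followed in a list of 26 genes, of which 25 had an untreated mean of at least 10. After triptolide 25 were called lower with NONT, 21 with NUP93-KO and 22 with EXOSC5-KO, against 90%, 55.1% and 64.3% of all genes. The list's median log2 changes were −2.71, −1.92 and −2.41, where the median gene changed by −1.62, −0.92 and −1.08. BTG1, BTG2 and TOB1, antiproliferative factors of the BTG/TOB family that associate with CCR4-NOT, were among the largest losses. BTG2 was at 504.3 and 760.6 against 2.39 and 4.36 in NONT. NUP93-KO had 609.3 and 691.9 against 14.7 and 5.92, and EXOSC5-KO had 1076 and 1015 against 14.8 and 11.4. Its log2 changes were −7.19, −5.96 and −6.22 (SE 0.40, limma adjusted p = 2.51e-10, 6.58e-09 and 3.87e-09). Treated BTG2 values stood for only about 4 to 17 reads and treated BTG1 values for 0 to about 19. TOB1 stood for about 6 and 8 reads in treated EXOSC5-KO libraries, so the counting error of these values is large. BTG1 changed by −7.58 in NONT and −6.20 in NUP93-KO and was listed at 0 in 1 treated NONT library, and TOB1 changed by −5.89 in EXOSC5-KO. BTG3, of the same family, was at 595.5 and 966.0 against 333.3 and 306.4 in NONT. Its log2 changes of −1.24, −0.52 and −0.71 (limma adjusted p = 9.31e-05, 0.0601 and 0.0122) were each a smaller loss than that of the median gene, and the one in NUP93-KO did not pass.

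The poly(A)-binding proteins PABPC1 and PABPC4, which coat the tail that CCR4-NOT removes, changed least. PABPC1 was at 28974 and 40586 against 23358 and 20681 in NONT (−0.64, limma adjusted p = 0.00941), a change of −0.40 without the second untreated replicate and one that missed the threshold without the second triptolide replicate (−0.55, adjusted p = 0.0643). NUP93-KO had 31606 and 33446 against 31701 and 34271, and EXOSC5-KO had 32768 and 31321 against 27705 and 26844, log2 changes of 0.02 and −0.23 that did not pass. PABPC4 changed by −0.93 in NONT (limma adjusted p = 0.000511) and by −0.25 and −0.40 in the knockouts, which did not pass. On the same-total and median-of-ratios scales both PABPC1 and PABPC4 had positive changes in all 3 genotypes.

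Under triptolide 13 of the 25 were called higher in NUP93-KO than in NONT and 11 in EXOSC5-KO, near the shares of all genes given above. Called in both knockouts were the deadenylases PARN (0.70 for NUP93-KO, 0.81 for EXOSC5-KO) and PDE12 (1.28 and 1.48), BTG1 (1.49 and 2.55), BTG2 (1.29 and 1.72), the GW182 protein TNRC6A (1.90 and 2.05), the nuclear poly(A)-binding protein PABPN1 (0.62 and 0.65), TNKS1BP1 (0.98 and 0.89), which associates with CCR4-NOT, and the eIF4E transporter EIF4ENIF1 (1.27 and 1.62). The BTG1 and BTG2 differences rest on the low read numbers given above. BTG3 (0.74), PABPC1 (0.58), PABPC4 (0.62), PUM2 (0.67) and the helicase DDX6 (0.63) were called in NUP93-KO. CNOT11 (0.90) and ANGEL2 (1.53) were among those called in EXOSC5-KO. With 1 library left out, 12 of the 13 calls in NUP93-KO were lost at least once, PDE12 being the exception. TNRC6A was at 0.95 there without the second NUP93-KO triptolide replicate (limma adjusted p = 0.0995), and BTG2 was at 0.70 without the first (limma adjusted p = 0.205). BTG1, listed at 0 in the first NONT triptolide replicate, was at 0.56 in NUP93-KO without that library (limma adjusted p = 0.372) and at 2.41 without the second. In EXOSC5-KO it was at 1.62 without the first. The EXOSC5-KO calls of CNOT11, PARN, PABPN1 and TNKS1BP1 rested on single libraries too. With 1 library left out they ran from 0.68 to 1.12, 0.71 to 0.90, 0.51 to 0.80 and 0.75 to 1.03. No gene of the list was called in an untreated knockout or for a difference in response, where 0 and 2 had an unadjusted p under 0.05 untreated and 13 and 7 did for the response (NUP93-KO and EXOSC5-KO, limma), all of the latter toward a smaller loss. These counts are to be read against the same shares of all genes (4.2% and 8.49%, then 41.3% and 23.1%).

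The genes whose pattern over the 12 libraries was most like that of CNOT1, by the root mean square of the difference in centred log2 values, were RAD21 (0.166), PANK3 (0.171), VAPB (0.189), MAPK6 (0.189) and SP2 (0.192), where the median of 12995 genes was 0.662. Among the other subunits CNOT10 (0.403), CNOT7 (0.409) and CNOT3 (0.447) were nearest to CNOT1 in this measure, and 1647 genes were nearer than CNOT10. CNOT8 (0.749), CNOT4 (1.02) and CNOT6L (1.51) were farther from it than the median gene.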

How the data were processed

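RNA-seq values of 12 U2OS libraries were grouped by genotype and treatment from the sample labels (6 groups of 2). The authors pseudoaligned reads with kallisto (0.46.1 in the submitters' processing notes) to the Ensembl GRCh38 transcriptome with ERCC sequences, strand-specifically, summarised genes with tximport, divided the counts by DESeq2 size factors estimated on 92 ERCC transcripts and kept the protein-coding genes. The deposited values are thus a spike-in-normalised signal. Only 25.3% to 37.6% of low values were whole multiples (within 0.01) of the worth of 1 read, so whole reads were not recovered, read numbers are approximate and no count model was used; counting error in low values is not modelled separately.

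Of 22471 rows, 92 were ERCC transcripts; 19584 of 22379 gene IDs matched GENCODE 44 for symbols and coordinates. Genes with an untreated mean of at least 10 were kept (13811). log2(value + 1) was fitted with 6 group means by limma 3.58.1 in R 4.3.3 (eBayes with trend, two-sided), with Benjamini-Hochberg adjustment over all genes and a threshold of 0.05. Fold changes on this scale understate changes of low genes. Code was tested on simulated data. Members and lists were chosen with earlier results of these data known. Named genes were all members, the targets, the 2 lowest and 2 highest of the deadenylation list per triptolide contrast, its genes called in other contrasts (1 of them is not reported here), and the 5 genes most like CNOT1. Alternatives were other pseudocounts (0.5 and 5, and none for the paralog ratios, added after seeing the data), filters, scalings, no trend, a replicate block and leaving out each library. Whether replicate numbers pair the libraries was not settled, and the main fit treated them as unpaired. Figures were drawn with matplotlib 3.10.9 and summaries made with SciPy 1.17.1, pandas 2.3.3 and NumPy 2.4.6 in Python 3.11.15.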

Additional observations from a re-analysis of the deposited data

How the results depend on the processing

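The 10 calls after triptolide in NONT and EXOSC5-KO held under every pseudocount, filter and left-out library and without trend. In NUP93-KO they numbered 8 to 10 with 1 library left out, 9 without trend and 6 on the median-of-ratios scale. CNOT9 was the 1 untreated call, in EXOSC5-KO on the mitochondrial scale. Under triptolide, 4 calls against NONT in NUP93-KO became 1 without trend, 0 on each other scale and 1 to 7 with 1 library left out. The 3 calls in EXOSC5-KO (CNOT2, CNOT4 and CNOT10) were lost on each other scale. On the same-total scale these were still positive, at 0.68, 0.60 and 0.46. The 2 members called lower on each other scale were CNOT1 and CNOT6L. With 1 library left out, the number called in EXOSC5-KO was 0 to 5. Calls for a difference in response, 0 in both, ran from 0 to 9 in NUP93-KO and from 0 to 4 in EXOSC5-KO with 1 left out. Relative to the median gene, the members' median without a filter was −1.81, −1.36 and −1.23, where the low genes added shift the median gene; with 1 library left out it was −1.61 to −1.38, −1.28 to −0.954 and −1.09 to −0.927. The paralog shifts stayed between −2.24 and −1.86 (CNOT6L to CNOT6) and between −2.04 and −1.78 (CNOT8 to CNOT7) with 1 left out. Across genes, the deviations of same-numbered replicates correlated at r = −0.05 to 0.04. That correlation removes a shift common to all genes of a library, so pairing through such a shift could not be seen in it. With a replicate block the calls were 10 in each genotype after triptolide, 3 in each knockout under triptolide and 0 elsewhere.

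Directions turned as follows, with causes not tested. Changes on the same-total and median-of-ratios scales are relative to the other genes of a library. After triptolide CNOT3 was at 0.00774 in NONT on the same-total scale and at 0.32, 0.15 and 0.0808 on the median-of-ratios scale (NONT, NUP93-KO, EXOSC5-KO), and CNOT7 at 0.21 in EXOSC5-KO on the latter. On these scales PABPC4 gave 0.41 and 0.72 (NONT), 0.32 and 0.66 (NUP93-KO) and 0.40 and 0.68 (EXOSC5-KO), and PABPC1 gave 0.70 and 1.01 (NONT) and 0.56 and 0.85 (EXOSC5-KO). In NUP93-KO PABPC1 was at −0.28 on the mitochondrial scale and from −0.0365 to 0.0760 with 1 library left out (negative without the first untreated or second triptolide replicate). Against NONT under triptolide in NUP93-KO, on the same-total, median-of-ratios and mitochondrial scales, CNOT1 was at −0.26, −0.28 and −0.20 and PABPC1 at −0.0724, −0.0907 and −0.0105. On the first pair of scales PABPC4 was at −0.0374 and −0.0557, PABPN1 at −0.0355 and −0.0539 and DDX6 at −0.0244 and −0.0427, PUM2 was at −0.00238 on the second, and CNOT6L ran from −0.84 to 0.18 with 1 library left out (the highest without the first NUP93-KO triptolide replicate). In EXOSC5-KO PABPN1 was at −0.0127 and −0.18 on the median-of-ratios and mitochondrial scales, and PARN at −0.0244 on the latter. Over the single genes and all alternatives, 35 values reversed, 183 lost and 22 gained a call and 1524 kept both.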
